A study of Rattus norvegicus with 6 samples.

Results

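The class II myosin heavy chain genes described here are 9 rows of the count table of rat H9c2 cells, taken by their gene symbols out of 16319 rows. Of these, 7 encode sarcomeric heavy chains (Myh1, Myh2, Myh3, Myh4, Myh6, Myh7 and Myh8) and 2 encode nonmuscle heavy chains (Myh9 and Myh10). H9c2 cells are myoblasts derived from the heart of a rat embryo, and the labels call the tissue cardiac muscle. They were grown in DMEM with fetal bovine serum, and no differentiation medium is named. RNA-seq compared 3 WT libraries with 3 libraries of Nono-KO cells, in which a frameshift was made in Nono, the gene of a nuclear RNA- and DNA-binding protein, with CRISPR-Cas9 from the PX459 plasmid under puromycin selection. The study's scheme shows the knockout line expanded from 1 clone. The pEGFP-N1 plasmid is named as a control, but no source used here says whether the WT libraries came from transfected cells. The methods call the libraries of a group biological replicates without saying what was replicated, and with 1 clone the p-values measure the spread between libraries of that clone and of the WT cells. A difference between genotypes cannot be told apart from a difference between this clone and the WT cells.

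Each class II heavy chain is a motor that binds actin and pairs with another through a long coiled coil. In striated muscle these dimers pack into the thick filaments of the sarcomere, and the isoform sets the speed of contraction. Developing muscle uses the embryonic (Myh3) and perinatal (Myh8) chains before the adult fast chains of type IIx (Myh1), IIa (Myh2) and IIb (Myh4), while the heart uses alpha (Myh6) and beta (Myh7). Nonmuscle chains IIA (Myh9) and IIB (Myh10) form the short filaments of stress fibres and of the contractile ring in most cells.

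A gene is said here to have risen or fallen where its adjusted p in edgeR was under 0.05. Library totals ranged from 17612958 to 19253858 counts. Nono held 5519 to 7329 counts in the WT libraries and 94 to 109 in the Nono-KO libraries (log2 fold change -5.89, SE 0.13, adjusted p = 2.47e-10 from edgeR's quasi-likelihood test). WT replicate 1 stood apart from the other WT libraries, with a chi-square per degree of freedom of 23.8 and 24.4 against them, where WT replicates 2 and 3 differed by 11.3 and the Nono-KO libraries by 2.60 to 10.3. In WT replicate 1 the troponin gene Tnnt2 stood at 13.4 CPM (counts scaled to the library total, adjusted by TMM), where the other WT libraries held 78.0 and 83.0 CPM. The part of this library in each result was not tested beyond leaving it out. The labelled cell type was checked on marker lists. For comparison, 34.2% of all tested genes rose and 38.1% fell. Some markers that rose held few counts in WT replicates 1, 2 and 3. These were 1, 9 and 6 for Actc1, 2, 14 and 6 for Ckm, 5, 5 and 9 for Mymx and 16, 8 and 9 for Myh11. Their tests thus lean on the Nono-KO libraries, where they are high. Of 13 cardiac markers, 7 were tested, 4 rose and 3 did not pass, and their summed level lay at 317 to 427 CPM in WT, against 896 to 1005 CPM in Nono-KO libraries. Within the cardiac list, Tnnc1 made up most of these sums, and went from 287 to 749 CPM on average and rose. Nkx2-5 went from 20.9 to 40.6 CPM and rose, and Gata4, at 15.1 to 17.3 CPM in WT and 17.5 to 20.1 CPM in Nono-KO libraries, did not pass. Nppa and Myl7 were at 0 to 2 counts per library and Ryr2 at 0 to 1. Nppb held 13, 7 and 4 counts in WT, against 1, 0 and 1 in Nono-KO libraries, and was not tested. The skeletal list held 12 rows, of which 11 rose and 1 did not pass, with sums of 330 to 551 CPM in WT, against 1958 to 2359 CPM in Nono-KO libraries. The skeletal factor Myod1 stood at 113 to 148 CPM in WT, against 143 to 161 CPM in Nono-KO libraries. Of 7 smooth muscle markers, 5 rose, 1 fell and 1 did not pass, with sums of 6664 to 7522 CPM in WT, against 14615 to 15697 CPM in Nono-KO libraries. Of 9 fibroblast markers, 6 were tested, 2 rose and 3 fell, with sums of 37363 to 45206 CPM in WT, against 28842 to 33963 CPM in Nono-KO libraries. Col1a1 and Col1a2 made up most of these sums, with means of 18295 and 18484 CPM in WT, while Dcn held 0 to 1 count per library. For endothelial and blood cells, 4 markers had a row and 2 were tested, of which 1 (Cd3e) rose, with sums of 5.02 to 8.18 CPM and 49.7 to 53.0 CPM. The part of these changes in cell state or cell type in the heavy chain results was not tested, and in bulk RNA more cells of a state cannot be told apart from more RNA per cell.

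In Nono-KO cells the embryonic heavy chain gene Myh3 rose, the adult fast gene Myh1 fell, and the nonmuscle genes Myh9 and Myh10 fell with log2 fold changes nearer to 0. Of the 9 genes, 8 passed the filter on low counts and Myh7 did not. Of the 8, 1 rose (12.5%), where 34.2% of all tested genes rose. A further 4, Myh4 among them, fell (50%), where 38.1% of all genes fell. Together 5 of 8 (62.5%) changed, against 72.2% of all genes, and 3 did not pass. With limits of 0.01 on the adjusted p and 1 on the absolute log2 fold change, 2 of 8 (25%) were called, Myh3 up and Myh1 down, against 29.5% of all genes. The CPM of the 3 WT and 3 Nono-KO libraries did not overlap for 5 of 8 genes, against 75.1% of all genes. With 8 genes, 1 gene moves a share by 12.5 points, so the number of heavy chain genes that moved is read as no result about the family. Myh4 and Myh6 passed the filter through the WT libraries alone, so the fall of Myh4 is of a gene tested only through the group where it is high. Myh8 passed through the Nono-KO libraries alone.

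The sequence just before the annotated start is shown for 3 genes of the chromosome 10 cluster that moved and whose windows hold an upstream TATAAA match, because Myh3 moved opposite to Myh1 and Myh4. The sequences are the RefSeq entries on the GRCr8 build, 150 bases each, 5′ to 3′ on the coding strand. Capitals mark matches to TATAAA, to the E-box pattern written as CANNTG, or to the MCAT core, which is CATTCC or its reverse complement.
Myh3 upstream, GRCr8 chr10:52269035-52269184 (+ strand): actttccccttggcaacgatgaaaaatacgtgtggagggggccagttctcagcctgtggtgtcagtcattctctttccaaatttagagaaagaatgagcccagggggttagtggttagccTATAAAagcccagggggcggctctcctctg
Myh1 upstream, GRCr8 chr10:52384762-52384911 (+ strand): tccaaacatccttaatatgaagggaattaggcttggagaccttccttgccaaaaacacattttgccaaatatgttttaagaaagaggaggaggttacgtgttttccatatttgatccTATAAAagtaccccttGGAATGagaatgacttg
Myh4 upstream, GRCr8 chr10:52421998-52422147 (+ strand): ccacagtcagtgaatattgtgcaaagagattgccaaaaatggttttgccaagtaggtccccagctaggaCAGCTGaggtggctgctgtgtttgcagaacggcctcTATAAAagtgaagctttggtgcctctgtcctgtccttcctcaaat
TATAAA began at base -30 of Myh3, -33 of Myh1 and -45 of Myh4, where base -1 is the last before the annotated start, and also at -30 of Myh2. Within 250 bases upstream and on either strand, TATAAA was found in 4 of 7 sarcomeric genes and in 1 nonmuscle gene (Myh9), against 12.9% of 33469 RefSeq windows of the same length. The E-box pattern was found in 4 sarcomeric and 2 nonmuscle genes, against 65.5% of windows. The MCAT core was found in 3 sarcomeric genes, Myh1, Myh4 and Myh6, and in Myh10, against 12.1%. The Mef2 consensus was found in Myh1, Myh4 and Myh9, against 2.96%, and the CArG box of Srf in Myh4 only, against 1.5%. Myh9 had 2 windows and was counted for a match in either, and its TATAAA and Mef2 matches lay in window 1 only. The TATAAA matches of Myh1 at -209, Myh4 at -193 and Myh9 at -179 lie within Mef2 matches. These are matches of letters, and a gene without a match lacks only those letters in this window. Of 5 pairs compared among Myh1, Myh2, Myh3 and Myh4, identity over aligned upstream bases was highest between Myh1 and Myh2, at 76.8%, and was 64.4% between Myh1 and Myh4, 61.3% between Myh1 and Myh3 and 55.1% between Myh3 and Myh4.

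**Figure D1:**
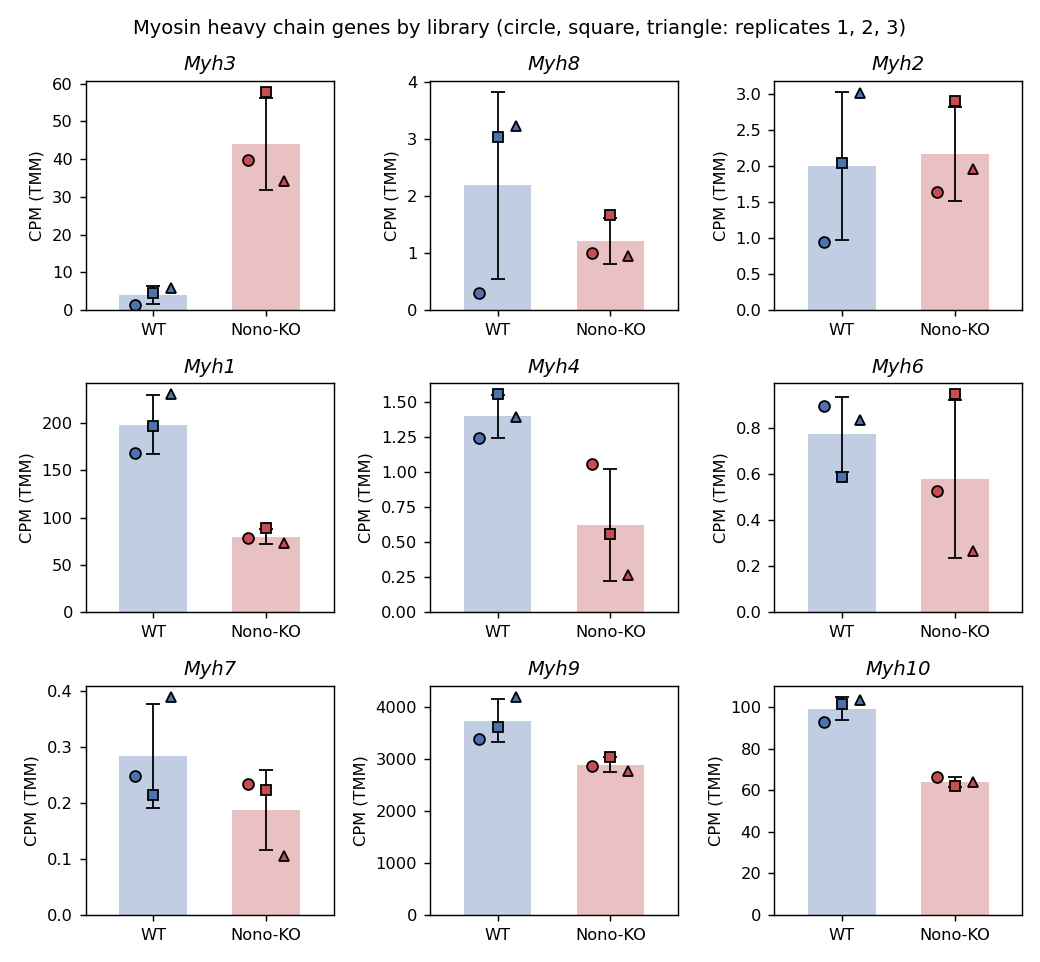
Level of each heavy chain gene in CPM (TMM-scaled) in WT and Nono-KO cells, 1 panel per gene with its own scale. Bars are means, error bars are SD (n = 3) and symbols are single libraries. Myh3 stands above all WT libraries in the Nono-KO libraries, while Myh1, Myh4, Myh9 and Myh10 stand below them.

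Myh3, the embryonic skeletal heavy chain, held 25, 85 and 106 counts in WT replicates 1, 2 and 3, and 681, 1038 and 647 counts in Nono-KO replicates 1, 2 and 3. In CPM these were 1.24, 4.55 and 5.90 in WT and 39.8, 57.8 and 34.3 in Nono-KO libraries. The lowest Nono-KO library was above the highest WT library, and WT replicate 1 was below the other WT libraries. The mean went from 3.90 ± 2.39 CPM to 44.0 ± 12.3 CPM (SD, n = 3 each), a log2 fold change of 3.51 (SE 0.46, adjusted p = 0.000375 from edgeR), or 11.4-fold higher. Without WT replicate 1 the log2 fold change was 3.07 (SE 0.22, adjusted p = 5.96e-08 from edgeR). The gene's rank by read count among the 16319 rows went from 10974, 9561 and 9060 in WT to 4260, 3286 and 4691 in Nono-KO libraries.

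Myh8, the perinatal chain that follows Myh3 in development, held 6, 57 and 58 counts in WT, against 17, 30 and 18 in Nono-KO libraries. Its CPM were 0.299, 3.05 and 3.23 in WT and 0.994, 1.67 and 0.953 in Nono-KO libraries. WT replicate 1 was below every Nono-KO library and the other WT libraries were above all of them, so the groups overlapped. The log2 fold change was -0.84 (SE 0.64, adjusted p = 0.259 from edgeR). Without WT replicate 1 it was -1.38 (SE 0.28) and passed (adjusted p = 0.000489 from edgeR), so 1 library decides this call. Its log2 fold change was negative, between -1.38 and -0.46, in all alternatives run.

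Myh1, the adult fast chain IIx, held the most counts of the sarcomeric genes in every library. Its counts were 3368, 3675 and 4128 in WT, against 1342, 1591 and 1377 in Nono-KO libraries, or 168, 197 and 230 CPM against 78.5, 88.6 and 72.9 CPM. No library of one group reached the other. The mean went from 197.9 ± 31.1 CPM to 80.0 ± 7.93 CPM (SD, n = 3 each), with a log2 fold change of -1.31 (SE 0.12, adjusted p = 2.27e-06 from edgeR), and was 2.47-fold higher in WT. Its rank by read count went from 1145, 978 and 870 in WT to 2591, 2346 and 2722 in Nono-KO libraries. Without WT replicate 1 the log2 fold change was -1.42 (SE 0.10).

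Myh4 and Myh2, the adult fast chains IIb and IIa, were low. Myh4 held 25, 29 and 25 counts in WT, against 18, 10 and 5 in Nono-KO libraries, or 1.24, 1.55 and 1.39 CPM against 1.05, 0.557 and 0.265 CPM. The groups did not overlap, although Nono-KO replicate 1 was close to the WT libraries. Myh4 fell, with a log2 fold change of -1.17 (SE 0.40, adjusted p = 0.0198 from edgeR). The call was lost with DESeq2 (-1.11, adjusted p = 0.0599), without Nono-KO replicate 2 (-1.09, adjusted p = 0.0578 from edgeR) and without Nono-KO replicate 3 (-0.76, adjusted p = 0.0924 from edgeR), and the adjusted p ranged from 0.00315 to 0.0924 over all alternatives. Myh2 held 19, 38 and 54 counts in WT, against 28, 52 and 37 in Nono-KO libraries, and the groups overlapped. Its log2 fold change of 0.13 (SE 0.37, adjusted p = 0.763 from edgeR) did not pass and changed sign without WT replicate 1 (-0.22) and without Nono-KO replicate 2 (-0.12).

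The cardiac chains Myh6 and Myh7 were near the lowest counts in all 6 libraries. Myh6 held 18, 11 and 15 counts in WT, against 9, 17 and 5 in Nono-KO libraries, and the groups overlapped (log2 fold change -0.42, SE 0.43, adjusted p = 0.397 from edgeR). Myh7 held 5, 4 and 7 counts in WT, against 4, 4 and 2 in Nono-KO libraries and was not tested. The ratio of its summed, depth-scaled counts in Nono-KO over WT was 0.632, with an exact 95% interval of 0.256 to 1.48 that covers counting error only. At this depth no difference was detectable for Myh7, since the interval holds 1.

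Myh9, the heavy chain of nonmuscle myosin IIA, was the most counted member in every library. It held 68251, 67879 and 75556 counts in WT, against 48966, 54832 and 52286 in Nono-KO libraries, or 3396, 3630 and 4204 CPM against 2864, 3052 and 2769 CPM. The highest Nono-KO library was below the lowest WT library. The mean went from 3743 ± 416 CPM to 2895 ± 144 CPM (SD, n = 3 each), with a log2 fold change of -0.37 (SE 0.09, adjusted p = 0.00289 from edgeR), and was 1.29-fold higher in WT. Its rank by read count was 11 to 16 in WT, against 25 to 28 in Nono-KO libraries. The fall was between -0.44 and -0.29 on the log2 scale in all alternatives.

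Myh10, the heavy chain of nonmuscle myosin IIB, held 1865, 1895 and 1859 counts in WT, against 1135, 1110 and 1206 in Nono-KO libraries. Its CPM were 92.8, 101 and 103 in WT and 66.4, 61.8 and 63.9 in Nono-KO libraries, and the groups did not overlap. The mean went from 99.2 ± 5.64 CPM to 64.0 ± 2.30 CPM (SD, n = 3 each), with a log2 fold change of -0.63 (SE 0.09, adjusted p = 4.10e-05 from edgeR). It was 1.55-fold higher in WT. Myh10 had the smallest spread between libraries among the tested members, with a biological coefficient of variation of 8.09%, where Myh8 had 52.2%.

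**Figure D2:**
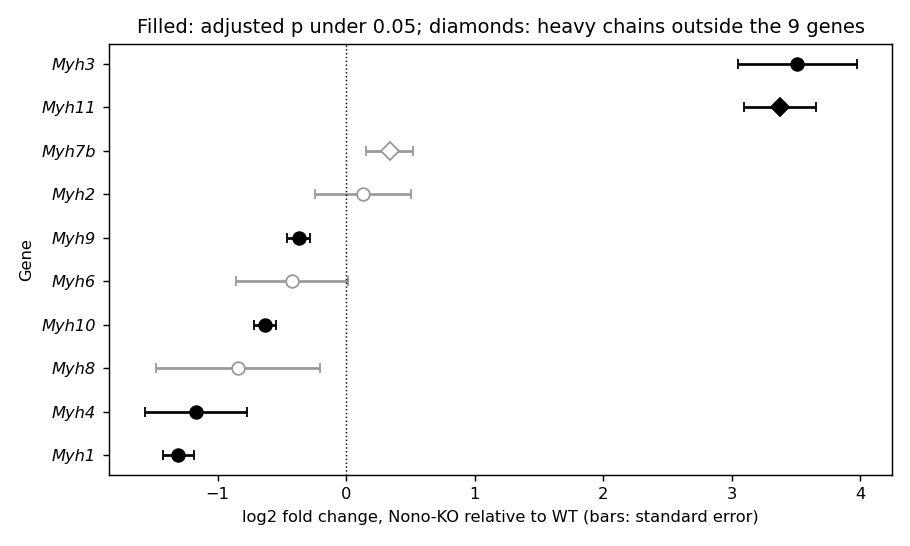
Log2 fold change of each tested heavy chain gene in Nono-KO relative to WT cells, with its standard error (bars). Filled symbols passed an adjusted p of 0.05 in edgeR and diamonds are heavy chains outside the 9 members. Myh3 (3.51) and Myh11 (3.37) stand apart on the right, and the bars of Myh2 and Myh6 cross 0.

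The other class II heavy chains of the table were the slow muscle chain Myh7b, the smooth muscle chain Myh11 and the nonmuscle IIC chain Myh14. Myh11 held 16, 8 and 9 counts in WT, against 86, 113 and 130 in Nono-KO libraries, and the groups did not overlap. It went from 0.57 ± 0.19 CPM to 6.07 ± 0.95 CPM (SD, n = 3 each), with a log2 fold change of 3.37 (SE 0.28, adjusted p = 9.72e-07 from edgeR). Myh7b held 80 to 106 counts in WT, against 93 to 129 in Nono-KO libraries (log2 fold change 0.34, SE 0.18, adjusted p = 0.113 from edgeR). Myh14 did not pass the filter, with 5 counts in all over WT and 43 over Nono-KO libraries, a ratio of 8.70 with an exact 95% interval of 3.45 to 28.1. Myh11 passed the filter only through the Nono-KO libraries, so its rise is of a gene tested only through the group where it is high.

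The shares of the isoforms in the summed counts of the 7 sarcomeric genes give the mixture within each library. They are shares of reads, not divided by length, so they are compared within a gene across libraries. Myh1 took 97.2%, 94.3% and 94.0% in WT and 63.9%, 58.0% and 65.9% in Nono-KO libraries. Myh3 took 0.721%, 2.18% and 2.41% in WT and 32.4%, 37.9% and 30.9% in Nono-KO libraries. Neither gene's groups overlapped: the mean share of Myh1 went from 95.1% ± 1.77 to 62.6% ± 4.08, and that of Myh3 from 1.77% ± 0.92 to 33.7% ± 3.64 (SD, n = 3 each). Myh2 took 0.548%, 0.975% and 1.23% in WT and 1.33%, 1.90% and 1.77% in Nono-KO libraries, so its share was higher although its CPM overlapped. The shares of Myh8, Myh4, Myh6 and Myh7 overlapped between the groups, with means of 0.135% to 0.985% in WT, against 0.144% to 0.922% in Nono-KO libraries. Without WT replicate 1 the mean WT share was 94.1% for Myh1 and 2.30% for Myh3.

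**Figure D3:**
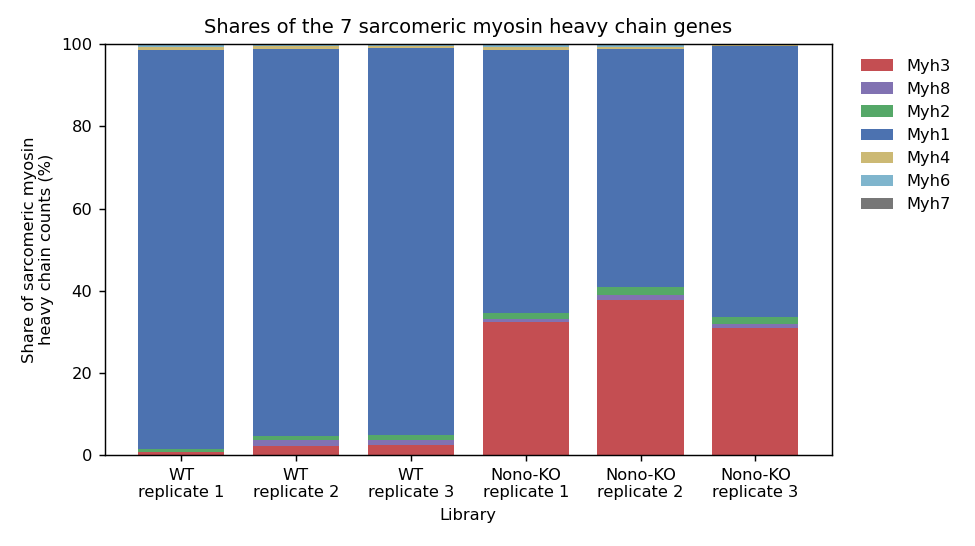
Share of each of the 7 genes in the summed counts of sarcomeric myosin heavy chains (%, vertical axis) in each of the 6 libraries, stacked to 100%. Myh1 takes 94.0% to 97.2% in WT, against 58.0% to 65.9% in Nono-KO libraries, and Myh3 takes most of the remainder in the Nono-KO libraries.

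The summed sarcomeric CPM were 172, 208 and 244 in WT and 123, 153 and 111 in Nono-KO libraries, a ratio of means of 0.617. With Myh3 left out the means were 204.6 and 84.7 CPM (ratio 0.414), and with Myh1 left out they were 10.5 ± 5.09 and 48.7 ± 13.7 CPM (SD, n = 3 each, ratio 4.63). The gain of Myh3 thus made up part of the counts that Myh1 lost, not all. The nonmuscle sum went from 3842 ± 421 to 2959 ± 143 CPM (ratio 0.770). All 9 genes together took 0.382% to 0.448% of all counts in WT, against 0.296% to 0.315% in Nono-KO libraries. Sarcomeric genes took 4.71%, 5.29% and 5.37% of these in WT and 4.02%, 4.67% and 3.76% in Nono-KO libraries. Within the nonmuscle pair the share of Myh10 was 2.66%, 2.72% and 2.40% in WT and 2.27%, 1.98% and 2.25% in Nono-KO libraries, with no overlap.

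Ratios of 6 member pairs were compared by exact two-sided permutation tests on log2 ratios per library, for which 3 libraries against 3 cannot give a p under 0.1. The count of Myh3 per count of Myh1, embryonic over adult, was 0.00742, 0.0231 and 0.0257 in WT and 0.507, 0.652 and 0.470 in Nono-KO libraries. On the log2 scale it went from -5.92 ± 0.98 to -0.89 ± 0.25 (SD, n = 3 each), a difference of 5.02 (exact permutation p = 0.1, adjusted over the pairs 0.15). Every Nono-KO library was above every WT library in this ratio. The differences of Myh3/Myh8 (4.03), Myh2/Myh1 (1.52) and Myh9/Myh10 (0.26) also had no overlap and the same p. For the cardiac pair Myh6/Myh7 (0.01) and the fast pair Myh1/Myh4 (0.02) the exact permutation p was 1, with few counts behind Myh7 and Myh4, and both differences changed sign in some alternatives. Myh4 held 0.742%, 0.789% and 0.606% of the count of Myh1 in WT and 1.34%, 0.629% and 0.363% in Nono-KO libraries. The ratio of these fast genes thus varied more among the Nono-KO libraries than in WT.

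Myh3, Myh2, Myh1, Myh4 and Myh8 stand in this order, followed by Myh13, on rat chromosome 10 in the RefSeq annotation of GRCr8, a build used here for order only. Myh6 and Myh7 stand side by side on chromosome 15, and Myh9 is on chromosome 7. Along the cluster the log2 fold changes were 3.51 (Myh3), 0.13 (Myh2), -1.31 (Myh1), -1.17 (Myh4) and -0.84 (Myh8). Myh3 rose, Myh1 and Myh4 fell, and Myh2 and Myh8 did not pass, though Myh8 passed without WT replicate 1. A link between change and position was not tested. The genes around the cluster were looked up after the values of the members had been seen. Before Myh3, Tmem220 rose (log2 fold change 1.04, adjusted p = 0.0191 from edgeR), while Adprm (0.20) and Sco1 (-0.16) did not pass. After the cluster, Gas7, the gene of a growth-arrest protein, fell from 40.0 ± 23.8 to 4.14 ± 0.42 CPM (SD, n = 3 each, log2 fold change -3.27, adjusted p = 0.000397 from edgeR). Around Myh6 and Myh7, Slc22a17 (1.01), Efs (0.95), Thtpa (0.45) and Ap1g2 (1.13) rose, and Pabpn1, Ngdn and Zfhx2 did not pass.

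**Figure D4:**
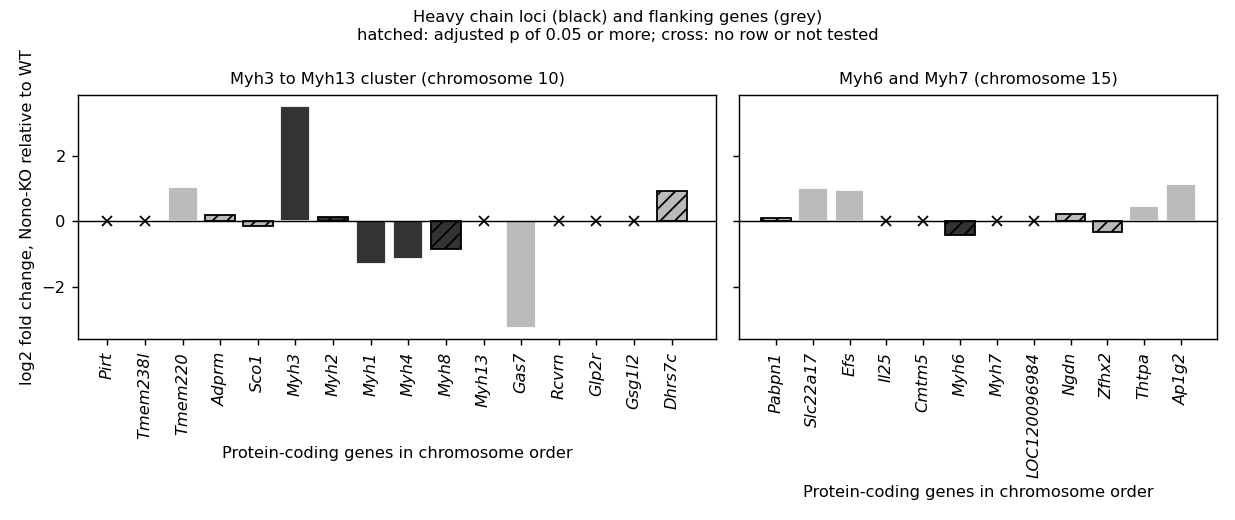
Log2 fold change in Nono-KO relative to WT cells for the heavy chain genes (black) and flanking protein-coding genes (grey) in chromosome order, for the cluster on chromosome 10 (left) and for Myh6 and Myh7 on chromosome 15 (right). Hatched bars had an adjusted p of 0.05 or more and crosses mark genes without a row or not tested. The bars of Myh3 (3.51) and Gas7 (-3.27) are the longest of the left panel.

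Most thick filament partners of the heavy chains rose. Of 15 listed genes, 13 were tested, 12 rose and 1 fell, with a median log2 fold change of 2.44, where the median of all tested genes was -0.05. That is 92.3% risen and 7.69% fallen, against 34.2% and 38.1% of all tested genes. Of the 13, 8 passed the filter only through the Nono-KO libraries, so these were tested only through the group where they are high. Among the 5 that also passed in the WT libraries, 4 rose and 1 fell, with a median of 1.18. Mybpc3, the cardiac myosin-binding protein C, went from 0.24 ± 0.23 to 8.07 ± 1.13 CPM (SD, n = 3 each, log2 fold change 5.09). The muscle RING-finger gene Trim54 changed by 4.59 and Mybphl, a relative of myosin-binding protein H, by 3.77. Mybpc3, Trim54 and Mybphl are among the 8 that passed through the Nono-KO libraries only. The risen genes that also passed in WT changed less: Trim63 by 1.27, Myom1 by 1.19, Ttn by 1.18 and Csrp3 by 1.13. The gene that fell, Trim55, another muscle RING-finger protein that binds titin, was the most abundant of the list, with 198.9 ± 4.48 CPM in WT and 102.6 ± 10.5 CPM in Nono-KO cells (-0.95). The summed level of the listed partners did not rise, with 234 to 240 CPM in WT, against 220 to 238 CPM in Nono-KO libraries. The sum of sarcomeric heavy chain counts was lower in every Nono-KO library, as given above.

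The sarcomeric light chains and their kinases that passed the filter, 3 of 9, rose, with a median of 2.05, where 34.2% of all tested genes rose. Of these, 2 passed the filter in WT and 1 through the Nono-KO libraries only. Mylpf, the fast skeletal regulatory light chain, went from 4.88 ± 2.82 to 73.7 ± 17.2 CPM (SD, n = 3 each, log2 fold change 3.93), with 1.79 CPM in WT replicate 1 against 7.33 and 5.51 CPM in the other WT libraries. Myl4, the atrial and embryonic essential light chain, went from 8.71 to 36.1 CPM (2.05). Among 12 folding and assembly factors, 6 rose, 3 fell and 3 did not pass, with a median of 0.26, and the 75% called stands near the 72.2% of all tested genes. The muscle chaperone of the myosin head Unc45b (2.71), the methyltransferase Smyd1 (2.44), the small heat shock protein gene Hspb7 (2.22) and the general chaperone Unc45a (0.88) rose, while Hsp90ab1, the most abundant of the list, changed by -0.26 and fell.

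Of 21 light chains and regulators of nonmuscle myosin, 8 rose, 10 fell and 3 did not pass, with a median of -0.20. With scaling to total counts 5 rose. The most abundant, the light chain Myl6, rose by 0.84 on the log2 scale, opposite to Myh9 and Myh10. The other light chains of the list, Myl9 (1.14), Myl12a (0.37) and Myl12b (0.28), rose as well. The summed level of the list was 6234 to 6481 CPM in WT, against 8293 to 8599 CPM in Nono-KO libraries. Mylk, the smooth muscle and nonmuscle light chain kinase, rose by 3.83 and passed the filter only through the Nono-KO libraries, where it is high. The kinases Rock2 (-2.21) and Rock1 (-1.61) and Ppp1r12a (-1.72), the targeting subunit of myosin phosphatase, fell. These counts are 38.1% and 47.6% of the list, where 34.2% and 38.1% of all tested genes rose and fell, so they are near the background.

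Of 29 listed transcription factors and cofactors of heavy chain genes, 25 had a row and 20 were tested, of which 4 rose, 13 fell and 3 did not pass, with a median of -0.80. That is 20% risen and 65% fallen, against 34.2% and 38.1% of all tested genes. Of the risen genes, 1 passed the filter only through the Nono-KO libraries, where it is high. Among the 19 that passed in the WT libraries, 3 rose and 13 fell. Myog, the myogenic factor of differentiation, stood at 4.63, 7.59 and 7.29 CPM in WT and at 99.1, 117 and 101 CPM in Nono-KO libraries. The groups did not overlap, and the log2 fold change was 4.03 (adjusted p = 9.49e-09 from edgeR). The MADS-box factor Mef2a (-2.36) and the homeobox factor Six4 (-2.10) fell. Nfatc2, a calcium-responsive factor, also fell (-3.21), and passed the filter only through the WT libraries, where it is high. The most abundant, Srf, changed by -0.20 and did not pass (adjusted p = 0.159 from edgeR).

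**Figure D5:**
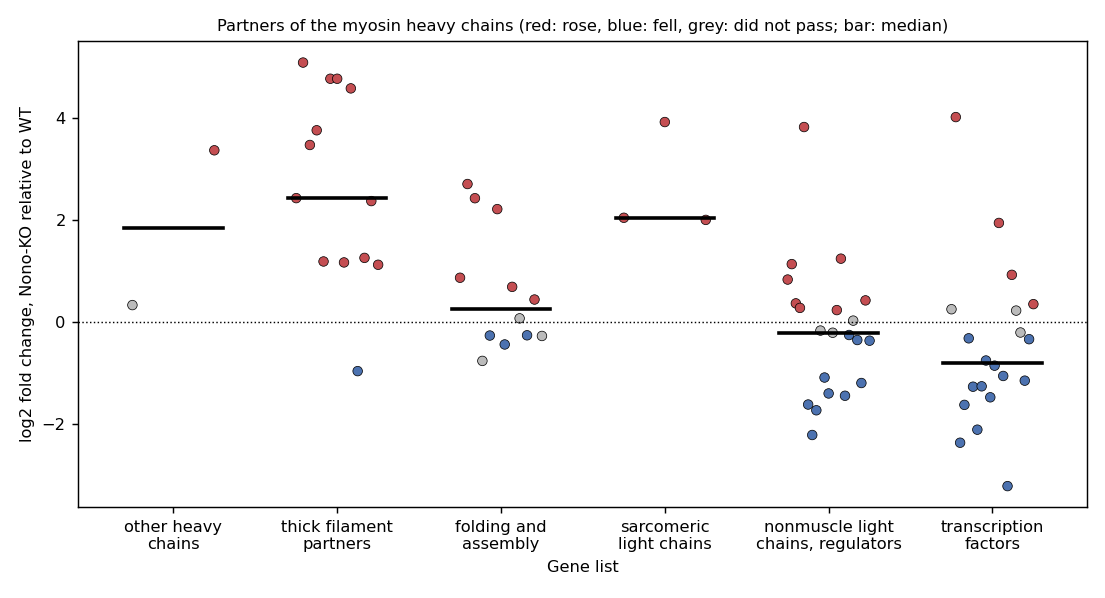
Log2 fold change of every tested gene of 6 lists of myosin heavy chain partners (points, 1 per gene) in Nono-KO relative to WT cells, with the median of each list (bar). Red points rose, blue points fell and grey points did not pass the edgeR test. The thick filament list lies above 0 except for Trim55 (-0.95), while the transcription factor list has a median of -0.80.

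The genes whose log2 CPM over the 6 libraries were most like those of Myh1 were Crebbp (r = 0.999), Tnks (r = 0.999) and Rac1 (r = 0.998), with log2 fold changes of -1.51, -0.61 and -0.63. Most like Myh9 were Mef2d (r = 0.997), Fasn (r = 0.995) and Pik3cd (r = 0.994), with log2 fold changes of -0.31, -0.84 and -0.54. The 6 points of each correlation are 3 libraries of each group and so carry the difference between the groups, and 1909 genes had an r over 0.95 with Myh1 and 242 with Myh9, so these names are a description only.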

How the data were processed

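RNA-seq was made from 3 WT and 3 Nono-KO libraries of H9c2 cells, grouped by the submitters' labels. The authors deposited raw counts per gene symbol, with no scaling, for stranded mRNA libraries. The submitters' notes name Trimmomatic, HISAT2, HTSeq and mRatBN7.2, while the study's methods name Bowtie2 and Rn6. How strand was set, and which annotation was counted, is not given in these sources. Near-identical heavy chains may have lost or split the reads they share. RefSeq gives Myh1 as an older name of Myh2, and Myh7 of Myh6, and rows were taken by their current symbols. The 6 single-library files equal the table.

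Counts were tested in R 4.3.3 with the quasi-likelihood test of edgeR 4.0.16 (robust, TMM, filterByExpr, 12028 genes tested, 4291 left out), adjusted by Benjamini-Hochberg over all tested genes. A gene is said to rise or fall at an adjusted p under 0.05. Dividing the absolute log2 fold change by the root of the F statistic gave the SE. Exact permutation tests used scipy 1.17.1. The edgeR test was checked on simulated data with the same spread for every gene. That check does not cover the wider spread of Myh2, Myh3 and Myh8. Totals of 17612958 to 19253858 counts limit genes with a few counts, and intervals cover counting error only. RefSeq windows on GRCr8 matched all 9 members. No length per gene was used, so levels were not compared between genes per length.

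The members, lists and tests were chosen with earlier results of these data known. Named genes are the members, other class II heavy chains, Nono, the most abundant gene of each list and up to 4 of its genes with the largest change at an adjusted p under 0.05 (with 5 CPM or more in the group where it is higher), and the 3 genes most correlated with Myh1 and with Myh9. Neighbours, marker genes and other exceptions were named after their values were seen. Alternatives were size factors, total counts, DESeq2 1.42.0, other filters, thinning, the replicate number as a block, other offsets and denominators, and leaving out each library. ATAC-seq libraries of the study were not used here. A gene that the rule names is not reported here.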

Additional observations from a re-analysis of the deposited data

How the results depend on the processing

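Of 263 alternative values, 242 were labelled the same. For fold changes this meant the same direction and side of the threshold, for shares a move within the spread, and for pair ratios the same sign. Counts of genes only had to stay within a set factor of the main count, so 3 or 5 fallen members were labelled the same as 4. The fall of Myh4 did not pass with DESeq2 (-1.11, adjusted p = 0.0599), and over the 6 fits that left out 1 library each its log2 fold change was -1.75 to -0.76. Such fits gave -0.22 to 0.54 for Myh2, which turned sign without WT replicate 1 (-0.22) and without Nono-KO replicate 2 (-0.12), and -1.38 to -0.46 for Myh8, which passed without WT replicate 1 (-1.38). They gave 3.07 to 3.93 for Myh3, -1.42 to -1.19 for Myh1, -0.96 to -0.03 for Myh6, -0.44 to -0.29 for Myh9 and -0.68 to -0.59 for Myh10, with 1 member risen and 3 to 5 fallen. At the strict thresholds 1 member fell. With all 9 members as the denominator, Nono-KO minus WT shares were 1.32 points for Myh3, 0.0218 for Myh2, -2.28 for Myh1 and 1.35 for Myh9, by construction smaller for sarcomeric genes. With 1 added to the counts, the log2 ratio Myh6/Myh7 differed by -0.026 and Myh1/Myh4 by -0.034, and leaving out libraries gave -0.28 to 0.19 and -0.40 to 0.49, with signs turned at -0.01, -0.16 and -0.28 for Myh6/Myh7 and at -0.02, -0.06, -0.04 and -0.40 for Myh1/Myh4. The nonmuscle list had 5 genes risen with total counts. The cause of these shifts was not tested. The median log2 fold change of all genes was -0.05 with TMM, 0.0032 with size factors and -0.11 with total counts. Under a filter of 10 CPM, Myh2, Myh4, Myh6 and Myh8 were left out and gave no value. Shares per coding length were not run, as no protein lengths were used here.

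Same-numbered libraries did not deviate together (r = 0.0455, -0.165 and -0.192). Deviations from a mean of 3 libraries constrain each other, so these values cannot show whether the numbers mark a pairing. With the replicate block the log2 fold change was 3.58 for Myh3, -1.30 for Myh1, -1.21 for Myh4 (adjusted p = 0.0125 from edgeR), -0.37 for Myh9 and -0.63 for Myh10. No member's call changed, and 3944 genes rose and 4443 fell, against 4108 and 4578 without it. Not every library correlated best with its own number. Depth limits Myh2, Myh4, Myh6, Myh7 and Myh8, which held 2 to 58 counts in each library.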
